A study of Mus musculus with 8 samples.

Results

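The signal transducers and activators of transcription (STATs) and the cytokine-inducible SH2 proteins that restrain them were examined in kidney RNA of diabetic mice given rFGF4 or vehicle. The genes were taken by symbol from the deposited gene table, and all 9 were found among its 55401 genes. They comprise 5 STAT genes (Stat2, Stat3, Stat5a, Stat5b and Stat6) and 4 genes of the SOCS family (Socs1, Socs2, Socs3 and Cish). All 9 had enough signal to be tested, since each reached 0.5 FPKM (fragments counted on the gene's exons, divided by exon length and by the reads mapped in the library) in at least 4 of the 8 libraries, a level that 15150 genes reached. Socs1 met it with exactly 4.

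The rFGF4 group held 4 mice, numbered 1, 2, 3 and 5, and the vehicle group 4 mice, numbered 2, 3, 4 and 5, with 1 library per mouse. rFGF4 is recombinant fibroblast growth factor 4, and the vehicle was phosphate-buffered saline. Both groups were diabetic, and no non-diabetic kidney was analysed here. The sample labels give the genotype as db/db model, a strain in which a mutated leptin receptor gene leads to obesity and diabetes, whereas the study's text describes the sequenced mice as made diabetic with streptozotocin (STZ), a toxin of pancreatic beta cells. The animals were male. In the regimen described for both diabetes models, rFGF4 or vehicle was given by intraperitoneal injection at 1 mg/kg on alternate days over 8 weeks, and no separate regimen or age is given for the sequenced mice. RNA came from kidney tissue and was selected for poly(A). In such bulk RNA, fewer cells of a type and less RNA per cell cannot be told apart.

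STATs are transcription factors that wait in the cytoplasm. When a cytokine or hormone binds its receptor, Janus kinases (JAKs) attached to the receptor phosphorylate them, and the paired STATs enter the nucleus and switch on their targets. Among those targets are SOCS genes, whose proteins bind the receptor or the JAK and shut the signal down, so that their mRNA is often read as a trace of recent STAT activity. In the kidney, STAT3 and SOCS3 respond to cytokines of the interleukin-6 family, STAT5 to growth hormone and prolactin, STAT6 to interleukin-4 and interleukin-13, and STAT2 to type I interferon. STAT activity itself rests on phosphorylation, which RNA levels do not show.

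The start regions of the 9 genes show where the loop can be written in sequence. RefSeq promoters (build GRCm38.p6, 250 bases before to 50 bases after the start) were at hand for 8 of the 9 genes, as 10 promoters, with none for Socs2. Each was searched for the palindromic STAT core TTCNNNGAA, the wider form TTCNNNNGAA that STAT6 prefers, and the direct repeat GAAANNGAAA (read on both strands) found in interferon-stimulated response elements. Both cores read the same on either strand, and matches may overlap one another, as those of Socs1 do. The core TTCNNNGAA was found in Socs3 and Cish, the repeat in Socs1 and Stat2, and the wider form in Stat2, while Stat3, Stat5a, Stat5b and Stat6 held none of these. Over all 32851 promoters of this length, 8.3% held TTCNNNGAA, 6.95% held TTCNNNNGAA and 3.44% held the repeat on either strand, so a match is a description of these letters and not a mapped site. The stretches with matches are shown because they hold the letters searched for, in genes known as targets of the pathway: Socs3 and Cish are classical targets of STAT3 and STAT5, and Socs1 and Stat2 of interferon. Capitals mark the matches, and all are written 5′ to 3′ along the gene's own strand.
Socs3: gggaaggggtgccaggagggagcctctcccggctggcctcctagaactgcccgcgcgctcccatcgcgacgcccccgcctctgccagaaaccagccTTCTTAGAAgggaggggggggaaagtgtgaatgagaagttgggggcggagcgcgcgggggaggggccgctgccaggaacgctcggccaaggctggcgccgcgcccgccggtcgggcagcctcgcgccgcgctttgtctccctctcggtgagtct
Cish: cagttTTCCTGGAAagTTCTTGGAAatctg
Socs1: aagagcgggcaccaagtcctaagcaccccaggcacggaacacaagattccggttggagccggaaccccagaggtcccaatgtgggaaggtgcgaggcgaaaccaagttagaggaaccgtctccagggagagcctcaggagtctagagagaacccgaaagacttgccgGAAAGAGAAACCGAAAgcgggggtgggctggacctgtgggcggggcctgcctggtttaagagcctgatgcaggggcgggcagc
Stat2: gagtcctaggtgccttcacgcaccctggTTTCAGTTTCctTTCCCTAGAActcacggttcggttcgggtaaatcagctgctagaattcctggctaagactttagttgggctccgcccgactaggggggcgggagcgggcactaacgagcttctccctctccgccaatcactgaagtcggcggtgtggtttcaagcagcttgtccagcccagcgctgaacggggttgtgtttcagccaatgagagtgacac
The Socs3 stretch is chr11:117969367-117969616 on the minus strand, 250 bases that end just before the RefSeq start, and its site begins 154 bases before that start. The Cish stretch is chr9:107296654-107296683 on the plus strand, 30 bases that hold a pair of cores, the first of which begins at the start itself and the second at base 12. Both lie within the longest gene model of the annotation used here. The Socs1 stretch is chr16:10785537-10785786 on the minus strand, with overlapping repeats that begin 83 and 77 bases before the start. The Stat2 stretch is chr10:128270248-128270497 on the plus strand, with the repeat on its opposite strand beginning 222 bases and the wider core 210 bases before the start.

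By the GENCODE M21 annotation of GRCm38, matched by gene identifier, Stat5b (chr11:100780731-100850724, minus strand), Stat5a (chr11:100859351-100885169, plus strand) and Stat3 (chr11:100885098-100939540, minus strand) lie side by side on chromosome 11, with Socs3 (chr11:117966079-117970047, minus strand) on the same chromosome. Stat6 (chr10:127642986-127660957), Stat2 (chr10:128270559-128292849) and Socs2 (chr10:95385362-95417180) lie on chromosome 10, the first 2 on the plus and Socs2 on the minus strand. Socs1 (chr16:10782240-10785536) is on the minus strand of chromosome 16 and Cish (chr9:107296026-107302784) on the plus strand of chromosome 9. Some exons overlap another gene's on the opposite strand: 72 bases between Stat3 and Stat5a, 40 bases between Stat6 and Nab2, and 261 and 479 bases between Cish and the antisense genes Gm17040 and Gm17041. Strand-specific counting is not stated, so reads of these stretches cannot be assigned to one strand. Stat5a and Stat5b arose by duplication, and 3.44% of the 100-base windows of Stat5a transcripts recur in Stat5b (265 windows, or 4.79% of those of Stat5b), so a small share of their reads fits both.

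The tissue label was checked against marker genes. The 10 proximal tubule markers summed to 1992 to 9659 FPKM in the rFGF4 group and 5192 to 9924 FPKM in the vehicle group. They had a lower mean with rFGF4 in 8 of 10 genes (median log2 fold change -0.40, none called). Of 6 adipocyte markers, Fabp4, which endothelium also makes, was at 5.69 to 13.4 FPKM with rFGF4 and 10.8 to 16.5 FPKM with vehicle (log2 fold change -0.73, called, limma adjusted p = 0.918), and the other 5 summed to at most 0.688 FPKM in any mouse. Red blood cell markers had a lower mean with rFGF4 in 5 of 5 genes (median log2 fold change -1.97, sums of 120 to 2657 against 1139 to 4325 FPKM, none called), and endothelium markers in 8 of 8 (median -0.24, none called). Podocyte markers had a higher mean in 7 of 7 (median 0.30, with Synpo called). Immune markers differed widely between mice of both groups. Macrophage markers had a higher mean with rFGF4 in 9 of 9 genes (median log2 fold change 0.43, none called), against 67.1% of all tested genes. Lymphocyte and lymph node markers had a lower mean in 5 of 6 tested (median -0.27, none called). The 9 macrophage markers summed to 1325, 480, 133 and 92.9 FPKM in rFGF4 mice 1, 2, 3 and 5, and to 49.6, 353, 65.2 and 1843 FPKM in vehicle mice 2, 3, 4 and 5. The 12 lymphocyte and lymph node markers reached 22476 FPKM in vehicle mouse 5 and 2669 FPKM in rFGF4 mouse 1, against 26.5 FPKM in vehicle mouse 4, the lowest, nearly all of it from the immunoglobulin gene Igkc. The other 11 summed to 142 FPKM in vehicle mouse 5, 29.2 FPKM in rFGF4 mouse 1 and 4.04 FPKM in vehicle mouse 4. Vehicle mouse 5 and rFGF4 mouse 1 therefore stood apart, and the differences are also given without them. The libraries hold FPKM and no counts. Their depth is unknown beyond a ratio of 0.905 to 1.12 to vehicle mouse 2, read from the spacing of low values.

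Across the whole table, 231 of 15150 genes, or 1.52%, passed both of the study's thresholds, p under 0.05 before adjustment and at least a 1.5-fold change (limma on log2(FPKM + 1), with fold changes on that scale, which understate the change of low genes). Without the fold criterion the share was 4.62%, and after Benjamini-Hochberg adjustment 0% passed, with 0.918 the smallest adjusted p. The 2 groups of 4 did not overlap in 3.33% of genes.

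None of the 9 STAT and SOCS genes met these criteria, none had an unadjusted p under 0.05, and in all 9 the groups overlapped. At a background of 1.52%, 0 of 9 is the likely count for any such small set, so it cannot show whether the genes stood apart from the table. The mean was higher with rFGF4 in 7 of 9 genes, against 67.1% of all tested genes, and the median log2 fold change (rFGF4 minus vehicle) was 0.29 over the 9 genes and 0.09 over all tested genes. Adjusted p-values of the 9 lay between 0.918 and 0.989 (limma), and 2-sided exact permutation p-values between 0.0857 and 0.886, where 0.0286 is the smallest that 4 against 4 mice allow. With both mice of the highest macrophage sums left out, an alternative chosen after seeing the data, still 0 of 9 were called, against 273 genes of the table. The log2 fold changes without them were 0.63 for Stat3, 0.39 for Socs3, 0.27 for Stat6, 0.21 for Stat5b and for Cish, 0.18 for Socs2, 0.12 for Stat5a, -0.045 for Stat2 and -0.14 for Socs1.

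**Figure D1:**
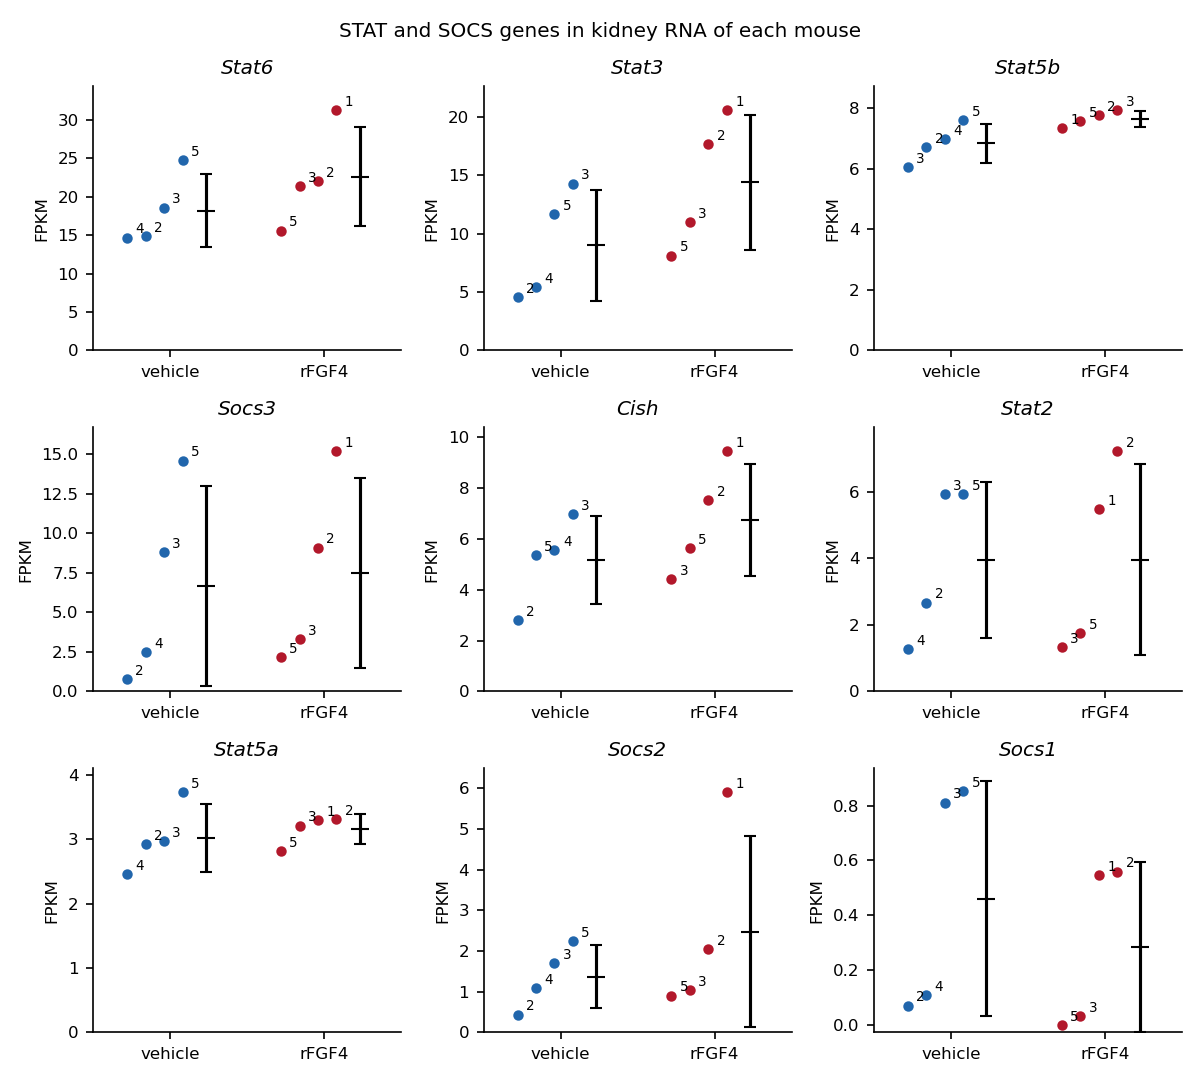
FPKM of the 9 genes in each mouse (linear axis, 1 panel per gene in order of the vehicle mean), with blue points for vehicle, red points for rFGF4, the mouse number beside each point, and the mean with its SD (n = 4) beside each group. The groups overlap in every panel, Stat5a and Stat5b are tight, and in Socs1 each group splits into a low and a high pair of mice.

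Stat3, the main transducer of interleukin-6 family cytokines, had the largest fitted difference of the 9 in the comparison without a block for mouse number. Its FPKM was 20.6, 17.7, 11.0 and 8.13 in rFGF4 mice 1, 2, 3 and 5, and 4.58, 14.3, 5.41 and 11.7 in vehicle mice 2, 3, 4 and 5. rFGF4 mice 1 and 2 were above every vehicle mouse, and vehicle mice 2 and 4 were below every rFGF4 mouse, while of the remaining 4 mice both vehicle mice were above both rFGF4 mice. The mean was 14.4 ± 5.78 with rFGF4 and 9.0 ± 4.76 with vehicle (SD, n = 4 each). The log2 fold change was 0.67 (SE 0.40, 95% interval -0.25 to 1.59, limma p = 0.133 before adjustment, adjusted p = 0.918), and the exact permutation p was 0.2.

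Socs3, the feedback inhibitor induced by STAT3, was the most variable of the 9 on the log2(FPKM + 1) scale. It measured 15.2, 9.10, 3.33 and 2.16 FPKM in rFGF4 mice 1, 2, 3 and 5, and 0.802, 8.79, 2.48 and 14.6 FPKM in vehicle mice 2, 3, 4 and 5. The highest mouse had 19 times the lowest, and each group held 2 mice at 8.79 FPKM or more and 2 at 3.33 FPKM or less. The means were 7.46 ± 6.01 and 6.67 ± 6.31 FPKM (SD, n = 4 each), the log2 fold change was 0.31 (SE 0.76, 95% interval -1.44 to 2.06, limma adjusted p = 0.96) and the exact permutation p was 0.714. Left out in turn, rFGF4 mouse 1 and vehicle mouse 2 each turned its sign, to -0.11 and -0.24. Its pooled within-group SD, 1.26 on the log2 scale, exceeded that of 97.5% of tested genes, against a median SD of 0.27.

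Stat2, part of the complex that answers type I interferon, did not separate the groups. Its FPKM was 5.48, 7.22, 1.34 and 1.75 in rFGF4 mice 1, 2, 3 and 5, and 2.67, 5.93, 1.28 and 5.93 in vehicle mice 2, 3, 4 and 5. Mice 1 and 2 of the rFGF4 group and mice 3 and 5 of the vehicle group were high, and both means were 3.95 FPKM (SD 2.87 with rFGF4 and 2.35 with vehicle, n = 4 each). The log2 fold change was -0.06 (SE 0.51, 95% interval -1.24 to 1.12, limma adjusted p = 0.989). It turned positive, to between 0.15 and 0.23, when mouse 3 or mouse 5 of either group was left out.

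Stat6, the transducer of interleukin-4 and interleukin-13, was the most abundant of the 9 per length. It measured 31.3, 22.1, 21.4 and 15.6 FPKM in rFGF4 mice 1, 2, 3 and 5, and 14.9, 18.6, 14.7 and 24.8 FPKM in vehicle mice 2, 3, 4 and 5. Only rFGF4 mouse 1 was above all vehicle mice, and vehicle mouse 5 was above the other 3 rFGF4 mice. The means were 22.6 ± 6.46 and 18.2 ± 4.75 FPKM (SD, n = 4 each), with a log2 fold change of 0.29 (SE 0.24, 95% interval -0.25 to 0.83, limma adjusted p = 0.92).

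Stat5a and Stat5b, the near-identical transducers of growth hormone, prolactin and erythropoietin, were the steadiest of the 9. Stat5b measured 7.34, 7.76, 7.94 and 7.57 FPKM in rFGF4 mice 1, 2, 3 and 5, and 6.72, 6.06, 6.98 and 7.61 FPKM in vehicle mice 2, 3, 4 and 5. Vehicle mouse 5 alone lay within the range of the rFGF4 mice, the other vehicle mice being lower. The means were 7.65 ± 0.258 and 6.84 ± 0.641 FPKM (SD, n = 4 each), the log2 fold change was 0.14 (SE 0.11, 95% interval -0.10 to 0.39, limma adjusted p = 0.92), and the exact permutation p of 0.0857 was the lowest of the 9. With libraries scaled to a common median ratio, the log2 fold change was 0.035. Stat5a measured 3.29, 3.31, 3.21 and 2.81 FPKM with rFGF4 and 2.92, 2.97, 2.46 and 3.73 FPKM with vehicle, in the same order of mice. Its vehicle values enclosed the rFGF4 values, and the log2 fold change was 0.06 (SE 0.13, 95% interval -0.24 to 0.36, limma adjusted p = 0.959). The within-group SD was 0.09 for Stat5b and 0.14 for Stat5a on the log2 scale, with smaller SDs in 2.59% and 13.5% of tested genes.

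Cish, the first SOCS protein described and a target of STAT5, measured 9.45, 7.52, 4.40 and 5.63 FPKM in rFGF4 mice 1, 2, 3 and 5, and 2.81, 6.97, 5.54 and 5.36 FPKM in vehicle mice 2, 3, 4 and 5. rFGF4 mice 1 and 2 were above all vehicle mice and vehicle mouse 2 below all rFGF4 mice, while the other 5 mice lay between 4.40 and 6.97 FPKM. The means were 6.75 ± 2.21 and 5.17 ± 1.73 FPKM (SD, n = 4 each), with a log2 fold change of 0.33 (SE 0.28, 95% interval -0.30 to 0.97, limma adjusted p = 0.92).

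Socs2, the inhibitor that limits growth hormone signalling, measured 5.91, 2.04, 1.05 and 0.905 FPKM in rFGF4 mice 1, 2, 3 and 5, and 0.438, 1.71, 1.1 and 2.25 FPKM in vehicle mice 2, 3, 4 and 5. rFGF4 mouse 1 had more than any other mouse, and 13.5 times the level of vehicle mouse 2, the lowest. The means were 2.48 ± 2.34 and 1.37 ± 0.779 FPKM (SD, n = 4 each), with a log2 fold change of 0.41 (SE 0.43, 95% interval -0.58 to 1.40, limma adjusted p = 0.925). Without rFGF4 mouse 1 it was 0.0067.

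Socs1, the inhibitor of interferon and STAT6 signalling, was the least abundant. It measured 0.548, 0.559 and 0.0323 FPKM in rFGF4 mice 1, 2 and 3 and was listed at 0.0001, the value that stands in for 0, in rFGF4 mouse 5. In vehicle mice 2, 3, 4 and 5 it measured 0.0706, 0.811, 0.109 and 0.852 FPKM. The 8 mice fell into a high and a low set of 4, each with 2 mice of either group. The depth is unknown, so the number of reads behind values at or below 0.109 FPKM cannot be given. The log2 fold change was -0.17 (SE 0.25, 95% interval -0.74 to 0.41, limma adjusted p = 0.942).

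**Figure D2:**
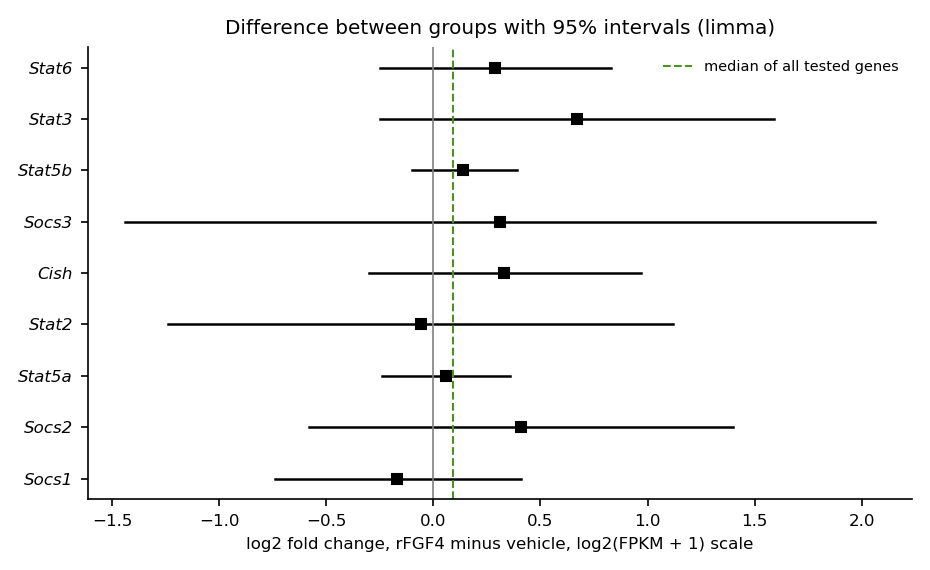
Log2 fold change (rFGF4 minus vehicle, on the log2(FPKM + 1) scale) of the 9 genes as squares, with 95% limma intervals as lines, 4 mice per group. Every interval includes 0, the intervals of Stat5a and Stat5b are the narrowest and those of Socs3 and Stat2 the widest, and the dashed line marks the median of all tested genes, 0.09.

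Ordered by mean FPKM, a level per length, the genes ranked Stat6, Stat3, Stat5b, Socs3, Cish, Stat2, Stat5a, Socs2 and Socs1, in the vehicle and the rFGF4 group alike. Of the 8 neighbouring pairs in this order, 2 differed beyond the spread over mice. Stat6 was above Stat3 in 8 of 8 mice, by 0.85 ± 0.43 on the log2(FPKM + 1) scale (SD, n = 8), and Socs2 above Socs1 in 8 of 8 mice, by 0.97 ± 0.52 (exact sign-flip permutation p = 0.00781 and adjusted p = 0.0312 over the 8 pairs, each). Cish against Stat2 and Stat5a against Socs2 kept their order in 7 of 8 mice and missed the adjusted threshold (exact permutation, adjusted p = 0.0781 each). The other 4 neighbouring pairs were not resolved: Stat3 was above Stat5b in 6 of 8 mice, and Stat5b above Socs3, Socs3 above Cish and Stat2 above Stat5a in 4 of 8 mice each.

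The variation within groups followed individual mice. In 5 of the 9 genes (Socs1, Socs2, Socs3, Stat2 and Stat3), the 4 highest mice were rFGF4 mice 1 and 2 and vehicle mice 3 and 5, a pattern noticed after the values were seen, which 17.4% of tested genes (2643 of 15150) shared. The same 4 mice were the highest in 8 of 9 macrophage markers, 10 of 11 tested interferon targets and 11 of 20 STAT3 and acute phase targets, and their summed macrophage markers were the 4 highest, between 353 and 1843 FPKM against 49.6 to 133 FPKM in the other 4 mice. Proximal tubule markers ran the other way: the same 4 mice had the 4 lowest sums, 1992 to 5326 FPKM against 8735 to 9924 FPKM. The same 4 mice also had the 4 highest sums of lymphocyte markers other than Igkc, 16.1 to 142 FPKM against 4.04 to 8.42 FPKM (3 of 6 tested markers of that list, Igkc included, had these 4 mice on top), and of podocyte markers (0 of 7), 91.7 to 113 FPKM against 50 to 87.7 FPKM. The part of any of these cell types in the levels of the 5 genes was not tested.

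**Figure D3:**
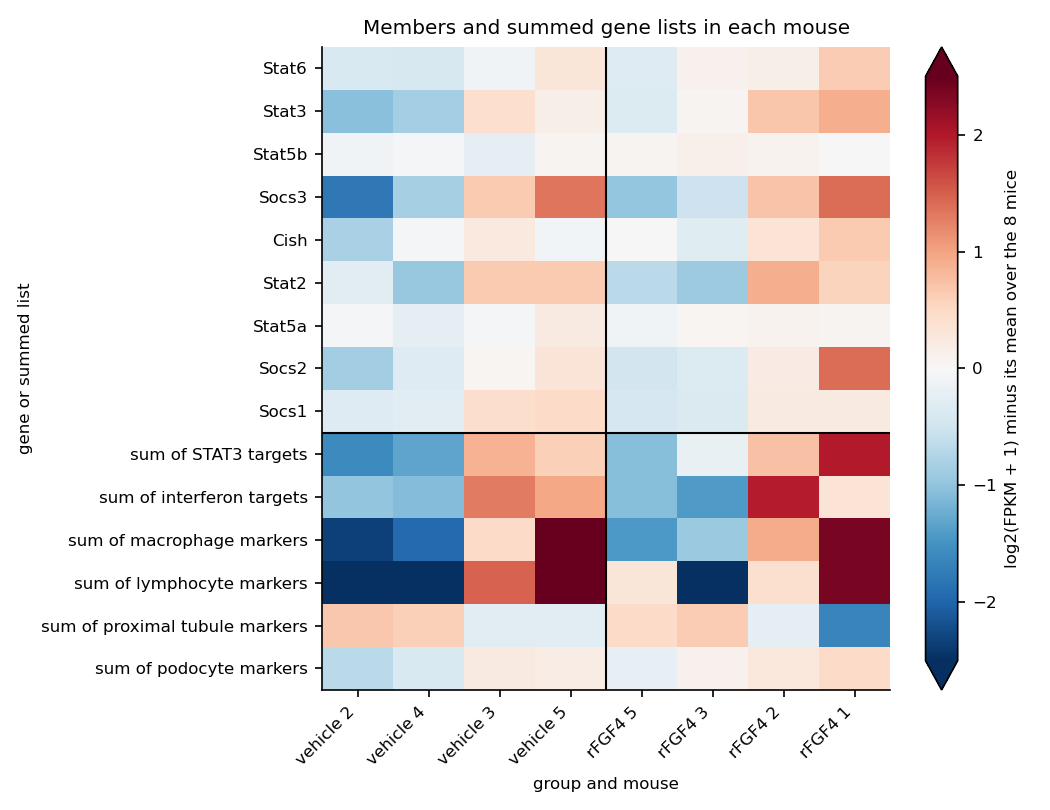
Log2(FPKM + 1) minus its mean over the 8 mice, for the 9 genes (above the line) and for summed gene lists (below it), with vehicle mice left and rFGF4 mice right of the vertical line, and colours ending at ±2.5. Socs3, Stat3, Stat2, Socs2 and Socs1 are high in vehicle mice 3 and 5 and rFGF4 mice 1 and 2, as are the macrophage sums, while the proximal tubule sums are low there.

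Across the 8 mice 6 pairs were compared: 4 of a transducer and a feedback gene, Stat5a with Stat5b, and Socs3 with Cish. Stat3 and Socs3 varied together, with Pearson r = 0.88 (exact permutation p = 0.00449, adjusted p = 0.0269) and Spearman rho = 0.90 (exact permutation p = 0.00456, adjusted p = 0.0274). After centring on the group means r was 0.95. Without vehicle mice 2 and 4, the 2 farthest from the median of Stat3, r was 0.77 and no longer passed (exact permutation p = 0.075). Leaving out extreme mice narrows the range and the number of mice, so this cannot show how far the relation rests on them. The relation was not particular to the pair, since 1194 of the other 15149 tested genes, or 7.88%, had a higher r with Socs3 than Stat3 had. Socs3 also ordered the mice much as the macrophage sums did: the 4 mice with the highest Socs3 were the 4 with the highest sums.

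**Figure D4:**
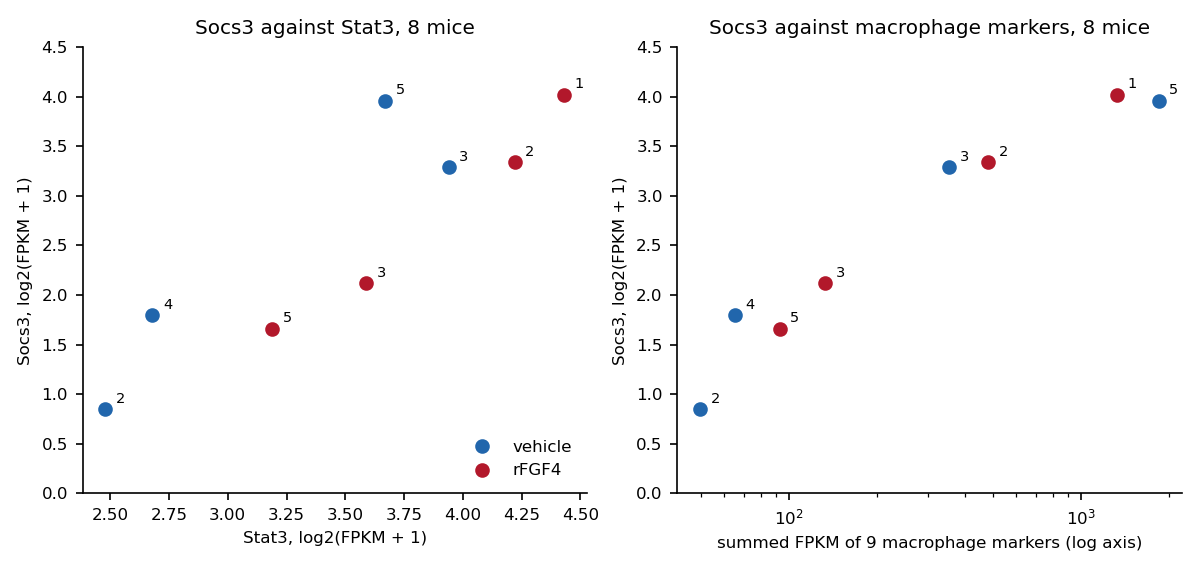
Socs3 in each of the 8 mice, as log2(FPKM + 1), against Stat3 on the same scale (left) and against the summed FPKM of 9 macrophage markers on a log axis (right), with vehicle mice in blue, rFGF4 mice in red and the mouse number beside each point. Points of both colours lie along 1 rising band in each panel, and rFGF4 mice 1 and 2 and vehicle mice 3 and 5 are at its upper end.

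Socs3 and Cish had r = 0.79 (exact permutation p = 0.0157, adjusted p = 0.0471), but Spearman rho was 0.62 (exact permutation p = 0.115, adjusted p = 0.324). Without vehicle mouse 2 and rFGF4 mouse 1 r was 0.44. Those mice are the lowest and the highest in Socs3, so how far the pooled relation rests on them cannot be told from this value alone. After centring on the group means r was 0.81 (exact permutation p = 0.0189). With libraries scaled to a common median ratio it was 0.64 and no longer passed (exact permutation p = 0.0819). Of the other tested genes, 3210 of 15149, or 21.2%, had a higher r with Socs3 than Cish had. Left out one at a time, r was 0.71 without rFGF4 mouse 1 and 0.63 without vehicle mouse 2, and neither passed (exact permutation p = 0.0607 and 0.13). The STAT5 pairs were not related at this number of mice: r was 0.06 for Stat5b and Cish, 0.15 for Stat5b and Socs2 and 0.44 for Stat5a and Stat5b (exact permutation p = 0.873, 0.704 and 0.284, adjusted p = 0.873, 0.844 and 0.426; Spearman rho -0.05, 0.17 and 0.52). Scaling the libraries to a common median ratio turned the r of Stat5b and Socs2 to -0.82 (exact permutation p = 0.0143). For Stat6 and Socs1 no r is given, because the Socs1 values fall into separate sets of 4 mice.

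The genes most like 3 of the members across the 8 mice were looked up by Pearson r of log2(FPKM + 1), as a description. For Socs3 they were Shfl (r = 0.992), Map11 (0.989) and Myd88 (0.988), for Stat3 Gm3699 (0.979), Nr6a1 (0.979) and Creld1 (0.975), and for Cish they included Gm31597 (0.958) and Rps2-ps8 (0.955). Some of these were low: Gm31597 lay at 0.0001 to 1.4 FPKM, Rps2-ps8 at 0.48 to 1.72 FPKM and Nr6a1 at 0.59 to 0.922 FPKM. An r above 0.9 was reached by 822 genes with Socs3, 248 with Stat3 and 40 with Cish. All points share the 8 libraries.

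The rest of the pathway was described by 12 lists of 129 genes, from ligands to targets. Of these, 101 could be tested, 0 were called in either direction and 0 had an unadjusted p under 0.05 (limma), against 1.52% and 4.62% of all tested genes. The mean was higher with rFGF4 in 68 and lower in 33, near the share of 67.1% of all tested genes with a higher mean. The median log2 fold change was 0.12, against 0.09 over all tested genes. Counts of higher means in the lists below are to be read beside that share. Leaving out single mice gave 0 to 7 called genes, the most without rFGF4 mouse 5 (among them Cntfr, Fga, Ifngr2, Junb, Lepr and Lif, with 0.479 the lowest adjusted p).

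Among ligands, most cytokines were too low to test, and 9 of 27 could be tested. Il6, the cytokine that gives STAT3 its best known input, was at 0.229 FPKM or below in all mice and was listed at 0.0001 in 3 of them.

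Receptors held both directions of mean. Of 8 tested interferon and interleukin-10 family receptors, 8 had a higher mean with rFGF4, their median was 0.11 on the log2 scale and none was called. Ifngr2, a chain of the interferon gamma receptor, was at 23.8, 10.7, 7.38 and 3.79 FPKM with rFGF4 and 2.90, 5.92, 3.93 and 9.27 FPKM with vehicle, in the order above (log2 fold change 0.77, SE 0.50, limma adjusted p = 0.918). Of 9 tested growth hormone, prolactin and hematopoietic receptors, 7 had a lower mean with rFGF4, with a median of -0.06. Ghr, the growth hormone receptor, was at 21.1, 27.1, 29.8 and 38.0 FPKM with rFGF4 and 41.4, 35.4, 42.7 and 20.6 FPKM with vehicle (log2 fold change -0.24, SE 0.26, limma adjusted p = 0.926). It was lowest in vehicle mouse 5 and rFGF4 mouse 1, the mice with the highest macrophage sums.

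The gp130 family and leptin receptors had a median of 0.22 over 7 tested genes. Il6st, the shared chain gp130, was at 18.5, 14.0, 11.8 and 9.93 FPKM with rFGF4 and 9.17, 10.1, 9.13 and 14.9 FPKM with vehicle. Lepr, the leptin receptor that is mutated in db/db mice, was at 0.55, 0.672, 0.259 and 1.45 FPKM with rFGF4 and 1.46, 0.903, 1.05 and 1.98 FPKM with vehicle (log2 fold change -0.46, SE 0.23, limma adjusted p = 0.918). Of the vehicle mice, 2 lay above all rFGF4 mice, and FPKM of the whole gene does not show which transcript was made.

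Of the kinases, Jak1 was at 24.6, 19.3, 17.1 and 13.1 FPKM with rFGF4 and 12.2, 12.6, 11.8 and 20.1 FPKM with vehicle (log2 fold change 0.36, SE 0.23, limma adjusted p = 0.918). Every rFGF4 mouse was above vehicle mice 2, 3 and 4, and vehicle mouse 5 was above all but rFGF4 mouse 1. Over the 4 JAKs the median was 0.11, with 3 higher and 1 lower mean. The 10 other inhibitors, which comprise PIAS proteins, phosphatases, the adaptor Sh2b3 and the protease Usp18, had a median of 0.19 with 9 higher means. The remaining STAT and SOCS genes had a median of 0.17 over 5 tested. Among them Socs7 was at 4.63, 4.32, 4.38 and 4.17 FPKM with rFGF4 and 3.21, 2.71, 3.97 and 0.331 FPKM with vehicle, so that the groups did not overlap (log2 fold change 0.75, SE 0.38, limma adjusted p = 0.918), a separation found in 3.33% of all tested genes. Without vehicle mouse 5 the log2 fold change was 0.33.

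Targets of the transducers were described in the same way, and none of 44 tested targets was called. The 20 STAT3 and acute phase targets had a median log2 fold change of 0.50, with 17 higher and 3 lower means, against higher means in 67.1% of all tested genes. Their summed FPKM was 1096, 462, 243 and 132 in rFGF4 mice 1, 2, 3 and 5 and 91.8, 510, 111 and 419 in vehicle mice 2, 3, 4 and 5. The 4 highest sums belonged to the 4 mice highest in Stat3 and Socs3. Junb, an early STAT3 target, was at 53.8, 41.5, 22.3 and 7.61 FPKM with rFGF4 and 5.11, 12.8, 5.45 and 31.5 FPKM with vehicle (log2 fold change 1.18, SE 0.70, limma adjusted p = 0.918). Fga, the fibrinogen alpha chain, was at 120, 59.3, 41.3 and 10.0 FPKM with rFGF4 and 7.26, 64.1, 9.73 and 10.0 FPKM with vehicle (log2 fold change 1.44, SE 0.85, limma adjusted p = 0.918). Vehicle mouse 3 was above all rFGF4 mice but mouse 1. Junb is also an immediate early gene, and the 10 immediate early genes summed to 33.6 to 209 FPKM with rFGF4 and 28.4 to 131 FPKM with vehicle. All 9 tested had a higher mean with rFGF4 (median 0.86 on the log2 scale, none called), and their part in the values of the STAT3 targets was not tested.

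The interferon targets had a median of -0.02 over 11 tested genes, with 5 higher and 6 lower means. Their sums were 135, 413, 39 and 50 FPKM in rFGF4 mice 1, 2, 3 and 5 and 52.6, 260, 49.1 and 207 FPKM in vehicle mice 2, 3, 4 and 5, which placed the same 4 mice on top and mouse 2 of the rFGF4 group first. Irf7, which amplifies the interferon response, was at 28.6 FPKM in that mouse and at 1.22 to 9.54 FPKM in the others. The 7 tested STAT5 targets had a median of 0.09 and the 6 tested STAT6 targets of 0.50. Among STAT6 targets, Ccl17, a chemokine of alternatively activated macrophages and dendritic cells, was at 10.7, 4.99 and 1.89 FPKM in rFGF4 mice 1, 2 and 3, listed at 0.0001 in rFGF4 mouse 5, and at 0.386, 0.350, 0.164 and 8.78 FPKM in vehicle mice 2, 3, 4 and 5. Igf1, which growth hormone induces through STAT5, was at 2.17, 0.56, 0.18 and 0.397 FPKM with rFGF4 and 0.529, 0.490, 0.289 and 3.07 FPKM with vehicle, highest in vehicle mouse 5 and rFGF4 mouse 1.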

How the data were processed

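The data are RNA-seq libraries of kidney RNA from 8 mice, 4 per group, grouped by sample title. The deposited table gives FPKM per gene and mouse, calculated by the authors with StringTie after per-library assembly and a merge with gffcompare. The submitters' processing notes name HISAT2 2.0, Bowtie 0.12.2, StringTie 1.3.0 and the build mm8, and the labels and the study's methods name different sequencers. A value of 0.0001 stands in for 0. The authors' own comparison columns, which hold a fold change (ratio), a log2 fold change and an unadjusted and an adjusted p-value, were deposited in the same table and were not used. Positions come from GENCODE M21, which held 55141 of 55401 identifiers (99.5%).

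FPKM are not counts, so edgeR, which the study used, was not run. log2(FPKM + 1) was fitted with limma 3.58.1 (R 4.3.3) with a mean-variance trend, over the 15150 genes at 0.5 FPKM or more in at least 4 libraries. Calls required an unadjusted p under 0.05 and a fold of at least 1.5, and p-values were also adjusted over all tested genes. Single genes were tested by permutation of all 70 splits of 4 against 4, pairs of genes by all 40320 pairings of the mice, and neighbours in level by all 256 sign patterns. No r was given for a gene whose values left a gap of over 0.5 of their range. The text names the 9 genes, up to 2 tested genes with the smallest p per pathway list, and the 3 genes most like Stat3, Socs3 and Cish. Il6, Il6st, Igf1 and genes called after single mice were left out were added after their values were seen, and some genes that the rule names are not reported here. The members and lists were chosen with earlier results of these data known. Nothing says that the mice came from separate cages or days, and depth is unknown, so no counting interval is given.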

Additional observations from a re-analysis of the deposited data

Results flagged for a closer look

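No group of any of the 9 STAT and SOCS genes held a mouse that lay far from the other 3 by Dixon's test on log2(FPKM + 1). Of 66 groups of 4 mice examined (the 9 genes and 24 named pathway genes), 5 held such a mouse, where chance gives about 1 in 20, or 3.3. Jak1 was at 20.1 FPKM in vehicle mouse 5, against 11.8 to 12.6 FPKM in the others (gap over range 0.886 on the log2(FPKM + 1) scale, as are the ratios that follow). Sh2b3, an adaptor that restrains JAK2, was at 9.3 FPKM in vehicle mouse 5, against 4.16 to 4.61 FPKM (0.879). Ccl17 was at 8.78 FPKM in vehicle mouse 5, against 0.164 to 0.386 FPKM (0.918). Il15 was at 2.92 FPKM in vehicle mouse 3, against 3.16 to 3.18 FPKM (0.936). Fga was at 64.1 FPKM in vehicle mouse 3, against 7.26 to 10.0 FPKM (0.86).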

How the results depend on the processing

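None of the 9 STAT and SOCS genes was called under any alternative (0 genes each time), and of 108 log2 fold changes under alternatives that can alter them 97 kept their sign, with 0.534 the lowest adjusted p (limma). Single mice left out in turn gave the following ranges of log2 fold change: Stat2 -0.38 to 0.23, Stat3 0.43 to 0.91, Stat5a -0.013 to 0.14, Stat5b 0.10 to 0.19, Stat6 0.12 to 0.44, Socs1 -0.30 to -0.04, Socs2 0.0067 to 0.63, Socs3 -0.24 to 0.80 and Cish 0.12 to 0.49. Scaling the libraries to a common median ratio moved the median of all genes from 0.09 to -0.01 and gave -0.038 for Stat5a, 0.035 for Stat5b, 0.17 for Stat6, 0.22 for Cish, 0.21 for Socs3, 0.32 for Socs2, 0.55 for Stat3, -0.16 for Stat2 and -0.21 for Socs1. The number of called genes in the table was 348 with a pseudocount of 0.1 and 187 to 575 without single mice, with 575 without rFGF4 mouse 5 and 432 without vehicle mouse 5. In the pathway lists it was 0 to 7 without single mice: 7 without rFGF4 mouse 5, 3 (Junb, Retnla and Sh2b3) without vehicle mouse 5, 2 (Fga and Fgg) without vehicle mouse 3, 1 (Rsad2) without rFGF4 mouse 2 and 1 (Socs7) without vehicle mouse 4. The cause was not tested.

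The mouse numbers 2, 3 and 5 occur in both groups, but nothing describes them as pairs, and deviations of same-numbered mice correlated at -0.23, -0.16 and -0.39. With the number as a replicate block, the difference rests on mice 2, 3 and 5 of each group alone. rFGF4 mouse 1 and vehicle mouse 4 have no mouse of the same number in the other group and drop out of the estimate. The log2 fold changes were then -0.029 for Stat5a, -0.03 for Socs2, -0.33 for Socs3, -0.58 for Stat2, -0.39 for Socs1, 0.30 for Stat3, 0.034 for Stat6, 0.17 for Stat5b and 0.22 for Cish. Among these mice Stat2 and not Stat3 had the largest difference. With the block 262 genes of the table were called, against 231 without it.

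For pairs of genes, leaving out the 2 mice farthest from the median gave r = 0.77 for Stat3 and Socs3, 0.44 for Socs3 and Cish, -0.27 for Stat5b and Cish and -0.14 for Stat5b and Socs2. Centring on the group means gave -0.32 for Stat5b and Cish and -0.10 for Stat5b and Socs2, and scaling gave -0.45 and -0.82 for these pairs and 0.64 for Socs3 and Cish. Without single mice r was 0.81 to 0.95 for Stat3 and Socs3, 0.63 to 0.92 for Socs3 and Cish, -0.29 to 0.41 for Stat5b and Cish, -0.02 to 0.28 for Stat5b and Socs2 and 0.38 to 0.57 for Stat5a and Stat5b. With 4 mice per group and no counts, differences smaller than the intervals given for each gene could not be resolved.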
